A study of Mus musculus with 42 samples.

Results

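The 10 genes described here encode chains of the collagens that build and coat the fibrils between the cells of the liver. They are Col1a1 and Col1a2 of type I collagen, Col3a1 of type III, Col5a1, Col5a2 and Col5a3 of type V, Col6a1, Col6a2 and Col6a3 of type VI, and Col14a1 of type XIV. The genes were chosen by name, out of 54446 genes in the count table. Of these, 15574 had enough counts to be tested, and all 10 collagen genes were among them.

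Liver RNA of 42 female mice was sequenced, with 1 library per mouse. All mice carried the human APOE*3-Leiden transgene, a variant of apolipoprotein E that slows the clearance of lipoproteins from the blood, and no group without the transgene was included. The chow-fed mice (Chow32w, n = 10) served as the healthy reference on a maintenance diet. The WTD-fed mice (WTD32w, n = 16) were 8 to 14 weeks old when they began a Western-type diet with 1% cholesterol, 40.5% sucrose and 15% cocoa butter by weight, which they ate for a run-in of 3 weeks and then for 32 weeks. From week 22 this diet also held 0.05% sodium cholate. The atorvastatin-treated mice (WTD&Atorvastatin32w, n = 16) received the same diet, cholate included, with atorvastatin mixed in from the end of the run-in, at 3.0 mg/kg/day and from week 5 at 4.5 mg/kg/day. The age of the chow-fed mice is not given in the sources used here. Chow-fed mice are numbered AZ# and the others Gen#, so the diet and the series of mice cannot be told apart.

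Fibrillar collagens are rope-like triple helices with glycine at regular steps along each chain. Type I joins copies of the Col1a1 product with 1 Col1a2 product, type III is made of Col3a1 chains alone, and both are secreted as procollagens, trimmed outside the cell, packed into fibrils and crosslinked. Type V starts and limits the growth of these fibrils, type VI forms a network of fine beaded filaments around cells, and type XIV sits on fibril surfaces. In the liver these collagens come mainly from stellate cells and portal fibroblasts, and their build-up is the scar of fibrosis.

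In GRCm38 (GENCODE vM21), the type I genes lie at chr11:94936224-94953042 (Col1a1) and chr6:4504814-4541544 (Col1a2), and Col3a1 lies at chr1:45311538-45349706, all on the plus strand. The type V genes lie at chr2:27886425-28039514 on the plus strand (Col5a1) and at chr1:45374321-45503282 (Col5a2) and chr9:20770050-20815067 (Col5a3) on the minus strand. The type VI genes are on the minus strand at chr10:76708792-76726168 (Col6a1), chr10:76595762-76623630 (Col6a2) and chr1:90765923-90843971 (Col6a3), and Col14a1 is on the plus strand at chr15:55307750-55520803. All are protein-coding, with 29 (Col6a2) to 67 (Col5a3) separate blocks of exons, and counts are for whole genes.

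The repeat can be read in the genes themselves. In the longest open reading frame of each gene's annotated transcripts, a GGN codon (the codons of glycine) stood in the same place of each 3-codon step over an unbroken run of 338 such steps (triplets) in Col1a1, 339 in Col1a2 and 344 in Col3a1. The run was 338 triplets in Col5a1, 339 in Col5a2 and 337 in Col5a3. It was shorter in the network-forming chains, with 87 triplets in both Col6a1 and Col6a2 and 45 in Col6a3, and it was 32 triplets in Col14a1. The first group of 6 chains thus shares 1 layout. Its members differed widely in how far they moved between diets, and a link between layout and change was not tested.

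Promoter sequences were taken from RefSeq (GRCm38.p6), which held an entry for 7 of the 10 genes. Col1a1, Col5a2 and Col14a1 were not matched. The 150 bases before the transcript start are shown for 4 genes, read 5′ to 3′ on the strand of the gene. Col1a2 and Col3a1 are shown because their transcripts rose most on the WTD among the matched genes, and Col5a1 and Col5a3 because these chains of 1 collagen type went different ways. Capitals mark CCAAT or TATAAA on either strand.
Col1a2: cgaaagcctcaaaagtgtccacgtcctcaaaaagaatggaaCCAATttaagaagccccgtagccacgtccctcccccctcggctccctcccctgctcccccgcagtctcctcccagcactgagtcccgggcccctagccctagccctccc
Col3a1: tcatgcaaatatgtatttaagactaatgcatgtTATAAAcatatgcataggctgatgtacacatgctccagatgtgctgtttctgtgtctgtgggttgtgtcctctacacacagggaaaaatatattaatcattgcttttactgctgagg
Col5a1: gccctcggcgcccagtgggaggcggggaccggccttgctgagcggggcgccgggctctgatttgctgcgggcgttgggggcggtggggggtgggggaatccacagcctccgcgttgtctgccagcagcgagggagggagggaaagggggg
Col5a3: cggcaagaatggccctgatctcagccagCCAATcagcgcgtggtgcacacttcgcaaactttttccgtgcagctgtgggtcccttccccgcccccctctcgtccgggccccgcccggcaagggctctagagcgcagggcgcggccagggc
These stretches lie at chr6:4505468-4505617 and chr1:45311388-45311537 on the plus strand, at chr2:27886275-27886424 on the plus strand and at chr9:20815068-20815217 on the minus strand. The box CCAAT (or ATTGG on the other strand) began at position -109 in Col1a2 and at -122 in Col5a3, counted from -1 for the base before the start, and was found in none of the other matched genes within 250 bases. Of all 32851 promoters in the RefSeq table, 33.8% held it in the same window. TATAAA (or TTTATA) was found in Col3a1 alone, at position -117, against 12.4% of all promoters. GGGCGG (or CCGCCC), which 32.7% of promoters held, occurred in Col5a1, Col1a2, Col5a3 and Col6a2. Of the 2 genes with a CCAAT box, Col1a2 rose strongly on the WTD and Col5a3 fell. The fall of Col5a3 did not hold in every alternative fit described below. Whether the box has a part in either change was not tested.

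Levels are given as CPM, the count of a gene scaled to a common library total by the TMM method, and differences as log2 fold changes with standard error (SE) from edgeR's quasi-likelihood test over all 42 mice. Genes with a Benjamini-Hochberg adjusted p under 0.01 over all 15574 tested genes were called. Counts on genes ran from 15661381 to 36224054 per mouse. In 8 libraries, called sparse here, over 20% of the weakly expressed genes (a mean of 1 to 2 CPM among mice of the same group) had no count at all. These were the chow-fed mice AZ#2, AZ#5 and AZ#6, the WTD-fed mice Gen#10, Gen#11, Gen#13 and Gen#21, and the atorvastatin-treated mouse Gen#29, with shares from 20.8% to 59.0%.

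On the WTD, 9 of the 10 collagen genes rose and Col5a3 fell. The median log2 fold change of the 10 genes was 1.91, against 0.03 over all tested genes. Over all genes 17.5% were called higher and 16.0% lower in this comparison. In 7 of the 10 genes every WTD-fed mouse was above every chow-fed mouse, which held for 3.4% of all tested genes. In whole liver, more cells that make collagen and more collagen RNA per cell cannot be told apart.

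**Figure D1:**
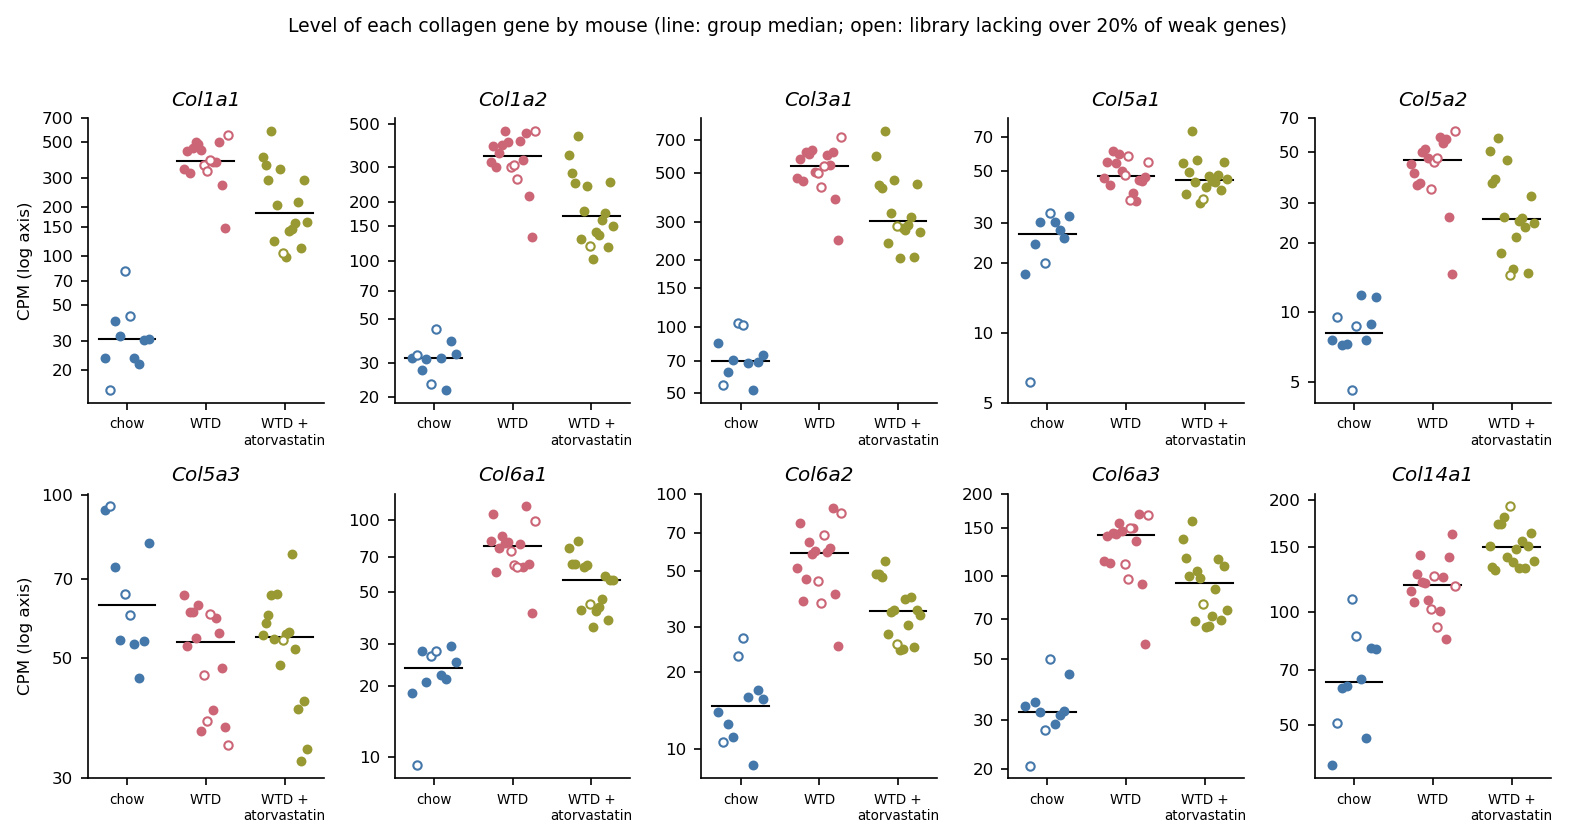
CPM of each collagen gene (log axis) in 10 chow-fed, 16 WTD-fed and 16 atorvastatin-treated mice, 1 point per mouse, with a line at the group median and open points for the 8 sparse libraries, which lacked over 20% of weakly expressed genes. Col1a1 lay between 15.1 and 80.9 CPM on chow and between 149 and 556 CPM on the WTD, while Col5a3 overlapped between all groups.

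The type I genes changed most. Col1a1 encodes the chain that makes up most of type I collagen. It had 15.1 CPM in the lowest, 30.9 in the median and 80.9 in the highest chow-fed mouse, and 149, 384 and 556 CPM in the lowest, median and highest WTD-fed mouse. The log2 fold change was 3.53 (SE 0.31, adjusted p = 1.4e-12 from edgeR), or 11.5-fold. Col1a2, the partner chain, ranged from 21.8 over 31.7 to 44.4 CPM on chow and from 131 over 342 to 460 CPM on the WTD. It rose by 3.43 on the log2 scale (SE 0.23, adjusted p = 8.7e-16 from edgeR). For both genes the groups did not overlap, and the lowest WTD-fed mouse was Gen#20 each time.

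Col3a1, whose product is mixed into type I fibrils and is plentiful in early scars, rose as well. Its level ran from 51.8 over 70.1 to 104 CPM on chow and from 249 over 537 to 723 CPM on the WTD. The log2 fold change was 2.83 (SE 0.20, adjusted p = 9.3e-16 from edgeR), and the groups did not overlap.

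The 3 type V genes went apart. Col5a2 is the chain that usually joins Col5a1 in type V collagen. It rose from a median of 8.16 CPM (4.60 to 11.9) to 46.0 CPM (14.6 to 61.4), a log2 fold change of 2.37 (SE 0.22, adjusted p = 5.6e-12 from edgeR). Col5a1 had a median of 26.8 CPM on chow (6.13 to 33.1) and of 47.7 CPM on the WTD (37.4 to 61.0), a smaller rise of 0.99 (SE 0.14, adjusted p = 9.3e-08 from edgeR). Both genes were higher in every WTD-fed mouse than in any chow-fed mouse.

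Col5a3, a less common type V chain, had a median of 62.7 CPM on chow (45.9 to 95.2) and of 53.5 CPM on the WTD (34.5 to 65.2). It fell by 0.41 on the log2 scale (SE 0.13, adjusted p = 0.0063 from edgeR), and 15 of 16 WTD-fed mice lay below the chow median although the groups overlapped. Without the 8 sparse libraries its log2 fold change was -0.30 (adjusted p = 0.10 from edgeR), which is not called. DESeq2, limma-voom, RLE scaling and a minimum of 10 counts in every mouse did not call it either.

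The 3 type VI genes rose by similar amounts. Col6a1 had 9.26, 23.8 and 29.4 CPM in the lowest, median and highest chow-fed mouse and 40.7, 78.3 and 115 CPM on the WTD, with a log2 fold change of 1.75 (SE 0.16, adjusted p = 4.7e-13 from edgeR). Col6a2, its partner chain, went from 8.66, 14.8 and 27.3 CPM to 25.4, 58.6 and 87.5 CPM, with 1.85 (SE 0.19, adjusted p = 1.8e-11 from edgeR). Col6a3, the largest chain of the trimer, went from 20.5, 32.2 and 50.0 CPM to 56.9, 141 and 169 CPM, with 1.96 (SE 0.16, adjusted p = 6.5e-14 from edgeR). Groups were apart for Col6a1 and Col6a3, and for Col6a2 1 WTD-fed mouse, Gen#20, lay below the highest chow-fed mouse.

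Col14a1, the fibril-associated member, rose less. It had 38.9, 65.0 and 109 CPM in the lowest, median and highest chow-fed mouse and 85.0, 119 and 163 CPM on the WTD. The log2 fold change was 0.79 (SE 0.11, adjusted p = 4.8e-08 from edgeR), with all 16 WTD-fed mice above the chow median and 10 of 16 above the highest chow-fed mouse.

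Against WTD-fed mice, the atorvastatin-treated mice had lower Col1a2, Col6a1 and Col6a2 and higher Col14a1, and the other 6 genes were not called. The median log2 fold change of the 10 genes was -0.51, against 0.00 over all tested genes. Of all genes 4.84% were called higher and 2.26% lower, a split that turned to 5.35% higher and 5.17% lower with DESeq2 and to 3.74% and 3.08% with RLE scaling. Without the 8 sparse libraries 1 collagen gene, Col6a2, was called. The count also moved with single mice, to 2 without Gen#2, Gen#17, Gen#26 or Gen#29, to 7 without Gen#22 or Gen#25 and to 8 without Gen#20.

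In atorvastatin-treated mice Col1a2 had 102 CPM in the lowest, 168 in the median and 433 in the highest mouse. It fell by 0.77 on the log2 scale relative to the WTD (SE 0.17, adjusted p = 0.0018 from edgeR), and 14 of 16 treated mice lay below the WTD median. Col1a1 had 98.1, 184 and 585 CPM, with a log2 fold change of -0.75 (SE 0.23, adjusted p = 0.021 from edgeR), which is close in size but did not pass. The spread of Col1a1 among treated mice was wide, with a coefficient of variation of 58.1% against 25.8% on the WTD and 53.8% on chow. Of the treated mice 1, Gen#25, was above every WTD-fed mouse. Col3a1 had 204, 301 and 771 CPM, with a log2 fold change of -0.53 (SE 0.15, adjusted p = 0.013 from edgeR).

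Col6a2 had 24.4, 34.7 and 54.3 CPM in the lowest, median and highest treated mouse. It fell by 0.66 (SE 0.15, adjusted p = 0.0019 from edgeR), and all 16 treated mice were below the WTD median. Col6a1, with 35.5, 56.2 and 82.0 CPM, fell by 0.49 (SE 0.13, adjusted p = 0.0055 from edgeR). Without the 8 sparse libraries the log2 fold change of Col6a1 was -0.49 (adjusted p = 0.012 from edgeR) and that of Col1a2 -0.74 (adjusted p = 0.011 from edgeR), so both were about as large with fewer mice but were not called. Col6a3, with 65.6, 94.3 and 159 CPM, had a log2 fold change of -0.45 (SE 0.13, adjusted p = 0.014 from edgeR).

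The type V genes showed no called difference between treated and untreated mice on the WTD. Col5a2 ranged from 14.6 over 25.4 to 57.4 CPM with atorvastatin, with a log2 fold change of -0.58 (SE 0.18, adjusted p = 0.021 from edgeR). Col5a1 ranged from 36.5 over 46.0 to 74.8 CPM, with -0.04 (SE 0.12, adjusted p = 0.92 from edgeR). Col5a3 ranged from 32.3 over 54.6 to 77.9 CPM, with 0.07 (SE 0.11, adjusted p = 0.80 from edgeR).

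Col14a1 went the other way. It had 130 CPM in the lowest, 149 in the median and 193 in the highest treated mouse, and every treated mouse was above the WTD median of 119 CPM. The rise over the WTD was 0.36 on the log2 scale (SE 0.09, adjusted p = 0.0063 from edgeR). Without the 8 sparse libraries it was 0.30 (adjusted p = 0.024 from edgeR), and with RLE or upper-quartile scaling Col14a1 was not called either. The groups overlapped, with 5 of 16 treated mice above the highest WTD-fed mouse.

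**Figure D2:**
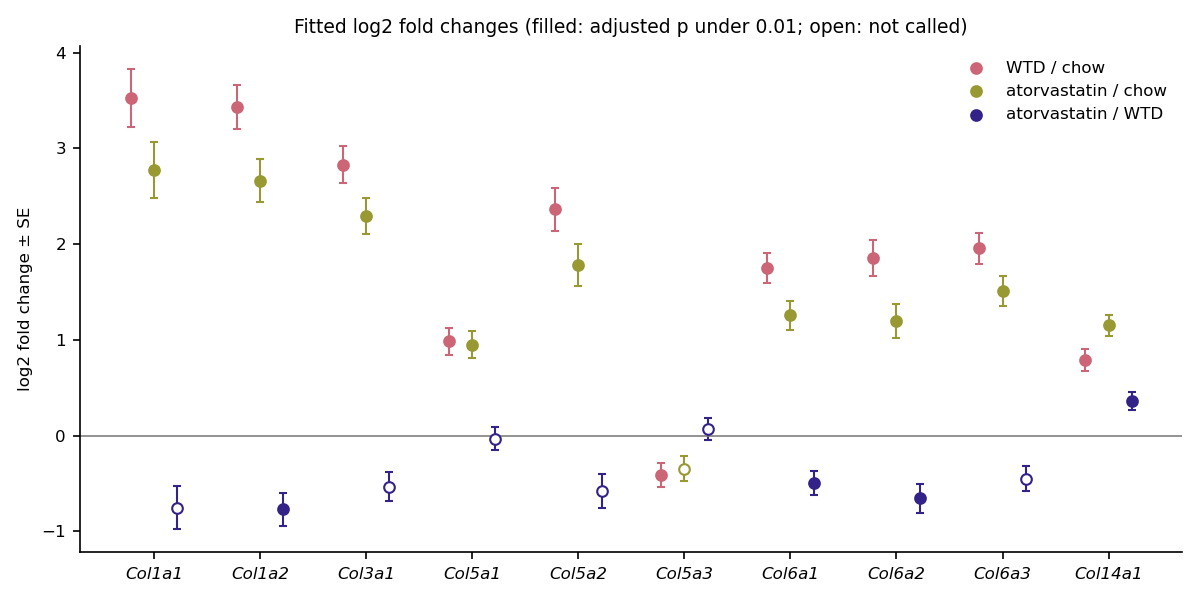
Fitted log2 fold changes of the 10 collagen genes with SE for 3 comparisons among 10 chow-fed, 16 WTD-fed and 16 atorvastatin-treated mice, with filled points for an adjusted p under 0.01 and open points otherwise. The type I genes lie highest for the WTD against chow (3.53 and 3.43), Col5a3 lies below 0, and in treated against untreated WTD-fed mice Col14a1 is the called gene above 0 (0.36).

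Compared with chow, atorvastatin-treated mice still had 9 collagen genes called higher, with a median of 1.38 (all genes, 0.04). Over all genes 14.2% were called higher and 10.7% lower. The log2 fold changes were 2.78 for Col1a1 (SE 0.29), 2.66 for Col1a2 (SE 0.22), 2.30 for Col3a1 (SE 0.19) and 1.79 for Col5a2 (SE 0.22). They were 1.51 for Col6a3, 1.25 for Col6a1, 1.20 for Col6a2, 1.15 for Col14a1 and 0.95 for Col5a1. Col5a3 had -0.35 (SE 0.13, adjusted p = 0.028 from edgeR) and was not called. In 8 of the 10 genes every treated mouse was above every chow-fed mouse, which held for 2.88% of all genes. The exceptions were Col5a3 and Col6a2. Both contrasts with chow rest on the same 10 chow-fed mice. Without the 8 sparse libraries the same number of genes, 9, was called higher in each of them.

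To compare genes with each other, CPM were divided by the length of all annotated exons of the gene in kilobases. Such levels, and ratios between them, depend on the annotation. In it the exons of Col1a2 cover 12426 bases and those of Col1a1 6563. Those of Col6a2 cover 8326 bases and those of Col6a1 4380. On chow the highest mean levels per kilobase were those of Col5a3 (9.92 ± 2.59 SD, n = 10) and Col14a1 (9.74 ± 3.00 SD), and Col5a3 was above Col14a1 in 5 of 10 mice, so this pair had no fixed order. The lowest was Col5a2 (0.887 ± 0.228 SD), below its neighbour Col6a2 in every mouse. On the WTD, Col1a1 (60.1 ± 15.5 SD, n = 16) and Col3a1 (53.7 ± 11.7 SD) led, Col1a1 being above Col3a1 in 14 of 16 mice. Col1a2 followed (27.5 ± 7.34 SD), below Col3a1 and above Col6a1 in all 16 mice. In treated mice Col3a1 (37.1 ± 15.5 SD) and Col1a1 (35.7 ± 20.7 SD) led, and Col3a1 was above Col1a1 in 10 of 16 mice.

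The summed level of the 10 genes was 48.7 CPM per kilobase on chow (SD 8.82, n = 10), 212 in WTD-fed mice (SD 41.4, n = 16) and 152 in treated mice (SD 52.4, n = 16). The make-up shifted with it. Type I took 15.6% of the sum on chow (SD 2.80), 40.9% on the WTD (SD 3.69) and 32.3% with atorvastatin (SD 6.44). Type III took 15.4%, 25.3% and 24.0%. Type V, the largest share on chow at 28.9% (SD 6.32), was 8.62% on the WTD (SD 1.20) and 11.5% with atorvastatin (SD 2.44). Type VI took 20.4%, 16.7% and 16.7%. Type XIV took 19.7% on chow (SD 3.33), 8.56% on the WTD (SD 3.77) and 15.6% with atorvastatin (SD 4.89).

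**Figure D3:**
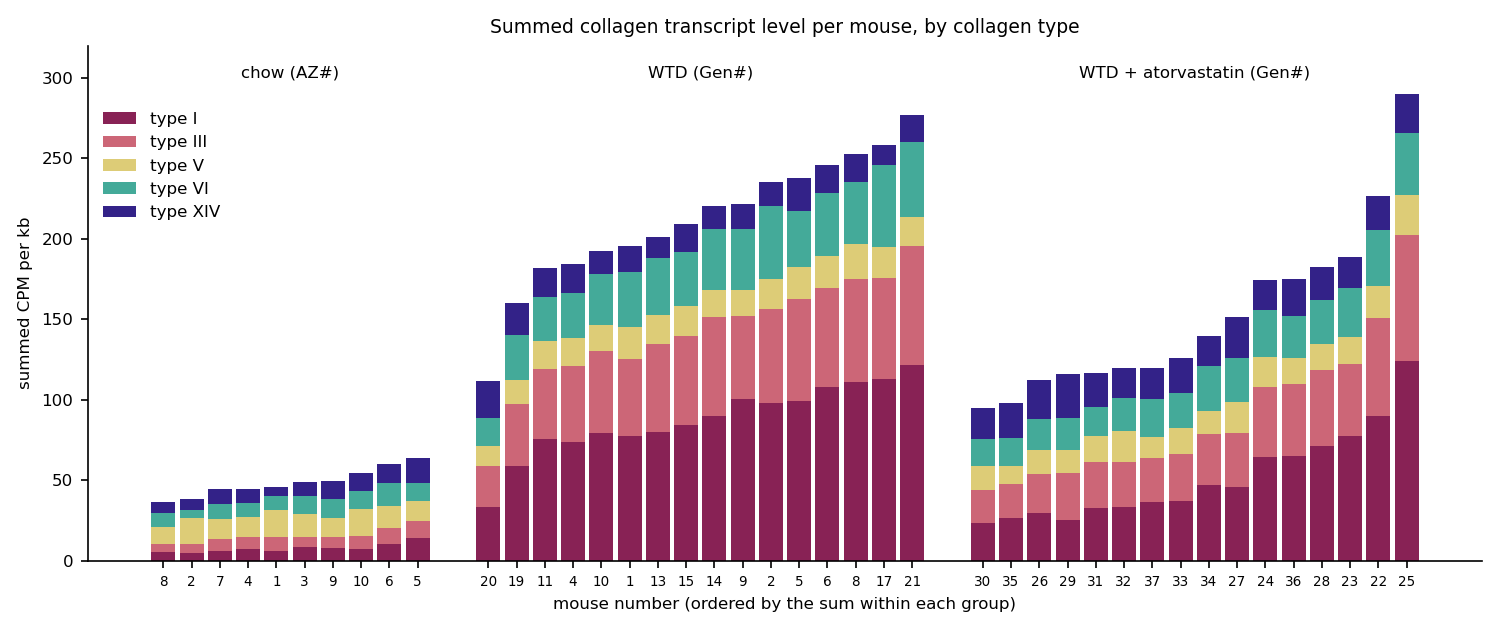
Summed CPM per kilobase of the 10 collagen genes in each mouse, stacked by collagen type and ordered by the sum within each group. Sums run from 36.3 to 63.9 on chow, from 112 (Gen#20) to 277 (Gen#21) on the WTD and from 94.7 (Gen#30) to 290 (Gen#25) with atorvastatin, and the type I part grows with the sum.

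Ratios between chains were tested between groups with 2-sided permutation tests over mice (100000 permutations), with adjustment over all 21 tests, and 11 had an adjusted p under 0.05. The ratio of Col1a1 to Col1a2 per kilobase had a median of 1.79 on chow (0.870 to 6.55), 2.15 on the WTD (1.74 to 2.82) and 2.11 with atorvastatin (1.68 to 2.68). These values depend on the annotated exon lengths given above. In counts, not divided by length, the mean log2 ratio was -0.01 on chow, 0.21 on the WTD and 0.15 with atorvastatin. The log2 difference of this ratio between WTD and chow was 0.22 (SE 0.24, adjusted p = 0.42 by permutation). Both ends of the chow range per kilobase were sparse libraries, and without the 8 sparse libraries the difference was 0.28 (SE 0.13, adjusted p = 0.035 by permutation). The ratio of Col3a1 to Col1a1 fell from a median of 1.59 on chow to 0.909 on the WTD (log2 difference -0.79, SE 0.15, adjusted p = 0.00011 by permutation), with all 16 WTD-fed mice below the chow median. With atorvastatin the median was 1.09, with a log2 difference of 0.30 from the WTD (SE 0.08, adjusted p = 0.0018 by permutation). Of the treated mice, 14 of 16 were above the WTD median.

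Within type V, the ratio of Col5a1 to Col5a2 had a median of 3.53 on chow, 1.27 on the WTD and 2.09 with atorvastatin. The log2 difference was -1.25 for WTD against chow (SE 0.29, adjusted p = 0.00075 by permutation) and 0.60 for treated against untreated mice (SE 0.20, adjusted p = 0.012 by permutation). The ratio of Col5a3 to Col5a1 had a median of 2.88 on chow (2.05 to 19.3, the highest in the sparse library AZ#2), 1.25 on the WTD and 1.46 with atorvastatin. It was lower on the WTD by 1.49 on the log2 scale (difference -1.49, SE 0.33, adjusted p = 7e-05 by permutation), and treated and untreated mice differed by 0.10 (SE 0.14, adjusted p = 0.54 by permutation).

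Within type VI the ratios moved little. Col6a1 to Col6a2 per kilobase had medians of 2.85, 2.64 and 2.90 on chow, WTD and atorvastatin, and Col6a3 to Col6a1 had 0.550, 0.611 and 0.655. None of the 6 tests passed, 1 had an unadjusted p under 0.05, and the largest log2 difference was 0.22 for Col6a3 to Col6a1 in treated mice against chow (SE 0.12, adjusted p = 0.063 by permutation). Without the 8 sparse libraries that difference was 0.26 (adjusted p = 0.016 by permutation), and Col6a1 to Col6a2 differed between WTD and chow by -0.31 (adjusted p = 0.030 by permutation).

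The ratio of Col14a1 to Col1a1 moved most. Its median per kilobase was 1.93 on chow (1.26 to 3.13), 0.259 on the WTD (0.158 to 1.02) and 0.808 with atorvastatin (0.277 to 1.72). The log2 difference was -2.79 for WTD against chow (SE 0.20, adjusted p = 7e-05 by permutation) and 1.27 for treated against untreated mice (SE 0.26, adjusted p = 0.00013 by permutation), and all 16 treated mice were above the WTD median.

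Mice of 1 group also differed from each other, and most of the collagen genes did so together. Among WTD-fed mice Gen#20 was the lowest for 7 of the 10 genes and the highest for Col14a1, while Gen#21 was the highest for 4 and the lowest for Col5a3. Among treated mice Gen#25 was the highest for 8 genes and Gen#30 the lowest for 6. Gen#25 had 585 CPM of Col1a1 and 771 CPM of Col3a1, both above every WTD-fed mouse, and Gen#30 had 98.1 and 204 CPM.

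The level of Col1a1 was compared with that of each other member across the mice of 1 group, on log2 CPM, with permutation tests adjusted over 27 relations. On the WTD 7 of 9 relations had an adjusted p under 0.05 (that of Col14a1 negative), with atorvastatin 7 of 9 and on chow 3 of 9. The share of all tested genes that would pass was not computed. In treated mice Col5a1, which passed, ranked 1945 by r among all other tested genes. Over the 16 WTD-fed mice Col1a1 and Col3a1 had a Pearson r of 0.965 (permutation p = 1e-05, the smallest the permutations can give, adjusted p = 3.4e-05) and a Spearman rho of 0.921 (permutation p = 1e-05, adjusted p = 5.4e-05). Without the 2 mice farthest from the median of Col1a1, r was 0.891. Over the 16 treated mice Col1a1 and Col1a2 had an r of 0.990 (permutation p = 1e-05, adjusted p = 3.4e-05) and a rho of 0.979 (permutation p = 1e-05, adjusted p = 5.4e-05), with r = 0.988 without the 2 farthest mice.

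Col5a1 and Col5a3 followed Col1a1 less. On the WTD r was 0.296 for Col5a1 (permutation p = 0.28, adjusted p = 0.35), with a rho of 0.394 (permutation p = 0.13, adjusted p = 0.19), and 0.382 without the 2 farthest mice. For Col5a3 r was 0.229 (permutation p = 0.42, adjusted p = 0.49), with a rho of 0.0559 (permutation p = 0.84, adjusted p = 0.91), and 0.178 without the 2 mice. For Col5a1 in treated mice r was 0.542 (permutation p = 0.028, adjusted p = 0.044) and rho was 0.468 (permutation p = 0.069, adjusted p = 0.11). Without the 2 farthest mice r was 0.154 (adjusted p = 0.67 by permutation), so the relation did not pass.

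Col14a1 had the sign opposite to the other members on the WTD. Over the 16 WTD-fed mice r with Col1a1 was -0.564 (permutation p = 0.025, adjusted p = 0.044) and rho was -0.394 (permutation p = 0.13, adjusted p = 0.19). Without the 2 farthest mice, r was -0.336 (adjusted p = 0.33 by permutation), so the relation did not pass. Leaving out the mice most extreme in Col1a1 narrows its range, so this cannot show whether the relation rests on them. In treated mice r was -0.0873 (permutation p = 0.75, adjusted p = 0.75) and rho was -0.112 (permutation p = 0.68, adjusted p = 0.77), and r was -0.338 without the 2 farthest mice. On chow r was 0.787 (permutation p = 0.0063, adjusted p = 0.013) and rho was 0.745 (permutation p = 0.017, adjusted p = 0.036) over 10 mice, 3 of them sparse libraries, and r was 0.679 (adjusted p = 0.13 by permutation) without the 2 farthest.

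**Figure D4:**
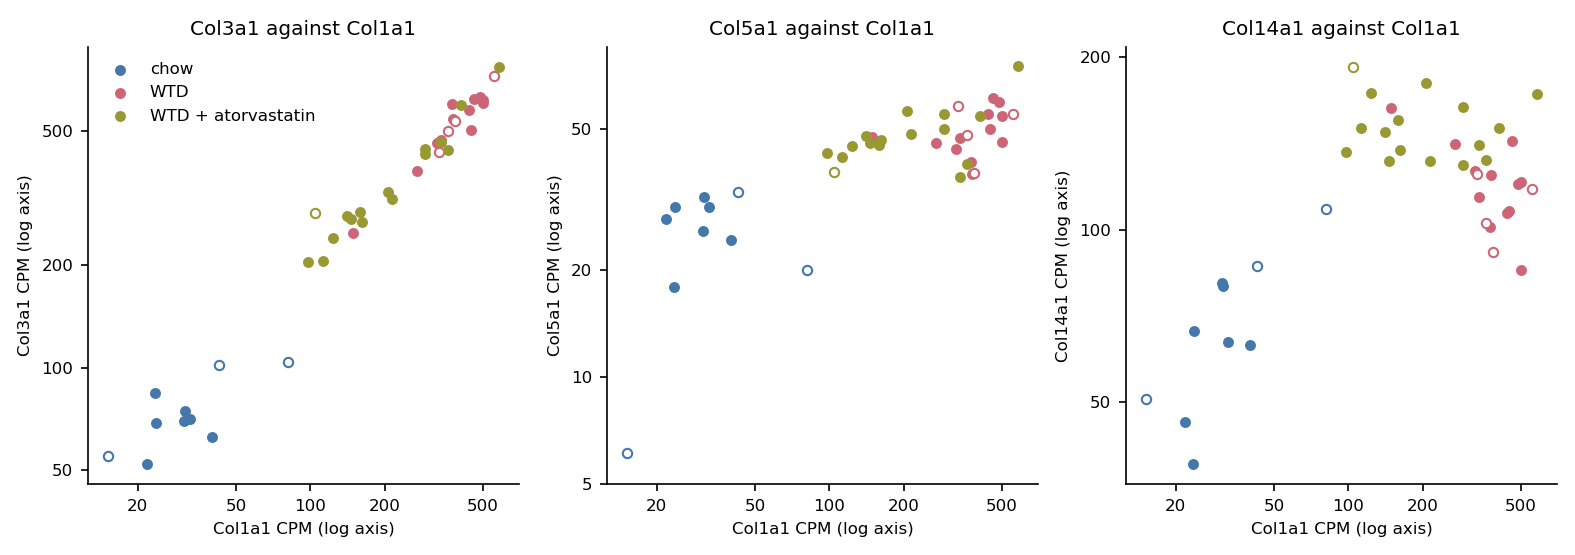
CPM of Col3a1, Col5a1 and Col14a1 against CPM of Col1a1 in each mouse (log axes), coloured by group, with open points for the 8 sparse libraries. Col3a1 rises with Col1a1 within the WTD and atorvastatin groups (r = 0.965 and 0.964), while Col14a1 does not (r = -0.564 and -0.0873).

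The tested genes outside the 10 whose log2 CPM followed Col1a1 most closely were named for both diet groups. Over the 16 WTD-fed mice these were Lhfp (r = 0.954), Fstl1 (0.915), Pmepa1 (0.914), Col8a1 (0.911) and Map4k4 (0.910). Over the 16 treated mice they were Col4a1 (0.955), Vars (0.948), App (0.945), Ltbp2 (0.944) and Ccdc80 (0.941). Among all other tested genes, Col3a1 ranked 1 on the WTD, Col6a3 ranked 3 and Col1a2 ranked 4. In treated mice Col1a2 ranked 1, Col5a2 ranked 2 and Col3a1 ranked 3, whereas Col14a1 ranked 14776 of the tested genes on the WTD. Ltbp2 (latent TGF-beta binding protein 2) rose on the WTD by 4.30 (SE 0.40, adjusted p = 1.1e-11 from edgeR) and fell with atorvastatin by 1.51 (SE 0.29, adjusted p = 0.00029 from edgeR).

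The proteins that prepare and assemble collagen were looked at as lists. Of 19 genes of collagen folding and hydroxylation, 8 rose on the WTD and 3 fell, with a median log2 fold change of 0.73, where 17.5% of all genes rose and 16.0% fell. Serpinh1, the collagen chaperone, went from 36.6 ± 11.5 CPM (SD, n = 10) to 88.8 ± 18.2 CPM (SD, n = 16), a rise of 1.28 (SE 0.16, adjusted p = 5.9e-09 from edgeR), and was lower with atorvastatin by 0.49 on the log2 scale (log2 fold change -0.49, SE 0.13, adjusted p = 0.0089 from edgeR). Colgalt1, which adds galactose to collagen, rose by 0.99 (adjusted p = 5.4e-14 from edgeR). Ppib, a prolyl isomerase in the same compartment, fell by 0.72 (adjusted p = 5.7e-11 from edgeR), as did Mia3, which loads procollagen for export, with a fall of 0.60 (adjusted p = 4.3e-08 from edgeR). With atorvastatin Mia3 was the 1 gene of the list that rose and Serpinh1 the 1 that fell, where 4.84% of all genes rose and 2.26% fell.

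Of 12 tested genes of procollagen cleavage and crosslinking, 8 rose on the WTD and 2 fell (median log2 fold change 1.10). Over all tested genes 17.5% rose and 16.0% fell on the WTD, so the number that fell is close to the share over all genes. Loxl1, a crosslinking oxidase, rose by 2.36 (SE 0.28, adjusted p = 2.2e-09 from edgeR) and fell with atorvastatin by 0.92 (SE 0.22, adjusted p = 0.0031 from edgeR), the 1 called gene of the list there. Bmp1, the protease that trims the C-terminal end of procollagen, fell on the WTD by 0.91 (SE 0.10, adjusted p = 1.0e-10 from edgeR). Of 11 proteins that bind to fibrils, 9 rose on the WTD (median log2 fold change 1.04). In treated mice 3 of them fell and 1 rose, where 2.26% of all tested genes fell and 4.84% rose. Lumican (Lum) went from 14.7 ± 4.07 CPM (SD, n = 10) to 131 ± 53.0 CPM (SD, n = 16) on the WTD, and in treated mice the level was 50.7 ± 22.6 CPM (SD, n = 16). Fn1 (fibronectin) was not called on the WTD (-0.09, adjusted p = 0.48 from edgeR) and rose with atorvastatin by 0.52 (SE 0.09, adjusted p = 4.5e-05 from edgeR), as Col14a1 did.

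Receptors and breakdown moved as well. Beside the counts below, 17.5% of all tested genes rose and 16.0% fell on the WTD, and 4.84% rose and 2.26% fell with atorvastatin. Of 12 collagen receptors 6 rose on the WTD, and with atorvastatin 2 fell, the matrix receptor Antxr1 (-0.94, adjusted p = 0.0036 from edgeR) and the inhibitory immune receptor Lair1 (-0.57, adjusted p = 0.0069 from edgeR). Of 9 genes of collagen breakdown and its inhibitors 7 rose on the WTD, with a median of 1.88, and 5 fell with atorvastatin. Among them the protease Ctsk rose by 3.87 (SE 0.37, adjusted p = 1.4e-12 from edgeR) and fell with atorvastatin by 1.40 (SE 0.27, adjusted p = 0.00021 from edgeR), and the inhibitor Timp2 rose by 1.88 and fell by 0.57. Of 16 genes of signalling to collagen transcription (ligands, receptors and Smads), 14 rose on the WTD, with a median of 1.63. Among the 14 was the inhibitory Smad7 (0.52, adjusted p = 0.0057 from edgeR), which is not an inducer. With atorvastatin 2 fell, the PDGF receptors Pdgfra (-0.71, adjusted p = 0.0013 from edgeR) and Pdgfrb (-0.61, adjusted p = 0.0026 from edgeR). Tgfb1 rose on the WTD by 1.61 (SE 0.14, adjusted p = 8.4e-14 from edgeR) and was not called with atorvastatin (-0.37, adjusted p = 0.025 from edgeR).

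Collagens close to the 10 genes were mostly weakly expressed. Of 5 other fibrillar collagens 3 were tested. Col27a1 was well expressed, at 39.7 ± 12.5 CPM on chow and 43.8 ± 12.0 CPM on the WTD (SD), and was not called (0.14, adjusted p = 0.38 from edgeR). Col24a1 fell on the WTD by 2.59 (SE 0.76, adjusted p = 0.0044 from edgeR) at levels of 1.77 ± 1.22 CPM on chow and 0.289 ± 0.505 CPM on the WTD (SD). Of the other collagens that sit on fibrils 4 were tested, and Col12a1 (1.13, adjusted p = 0.00098 from edgeR) and Col16a1 (1.13, adjusted p = 1.2e-08 from edgeR) rose on the WTD. Of the other type VI chains 2 were tested. Col6a6 rose from 0.451 ± 0.591 to 4.26 ± 2.53 CPM (SD), a log2 fold change of 3.20 (SE 0.65, adjusted p = 5.6e-05 from edgeR), and Col6a5 did not pass (2.53, adjusted p = 0.013 from edgeR). With atorvastatin Col6a6 had a mean of 1.27 ± 0.840 CPM (SD) and a log2 fold change of -1.73 against the WTD (SE 0.50, adjusted p = 0.014 from edgeR), above the threshold.

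Markers of liver cell types moved between the groups too, and their part in the collagen values was not tested. Beside all marker lists here and below stand the shares over all tested genes. On the WTD 17.5% rose and 16.0% fell, and with atorvastatin 4.84% rose and 2.26% fell. All 7 hepatocyte markers matched fell on the WTD, and 6 of them rose with atorvastatin, with a summed level from 101400 to 151600 CPM on chow, from 48050 to 98980 CPM on the WTD and from 57660 to 121600 CPM with atorvastatin. Of 9 portal fibroblast markers 7 rose on the WTD and 3 fell with atorvastatin, with sums of 29.6 to 88.7, 62.1 to 322 and 71.1 to 207 CPM. Of 10 stellate cell markers 2 rose on the WTD, Cygb (1.57) and Pdgfrb (1.87), and 1, Ecm1 (-0.94), fell. These counts are close to the shares over all genes. With atorvastatin Ecm1 (0.62) and Reln (0.47) rose and Cygb (-0.59) and Pdgfrb (-0.61) fell. The sums of the list overlapped, at 354 to 601, 471 to 667 and 481 to 707 CPM. Pdgfrb is also among the signalling genes above.

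Of 6 tested myofibroblast markers Timp1 (4.46) and Spp1 (2.47) rose on the WTD and Tpm2 (-2.46) fell, with a list median of -0.10. Tpm2 had a mean of 54.4 ± 120.6 CPM (SD) on chow and of 9.86 ± 5.51 CPM (SD) on the WTD. Its SD on chow was larger than its mean, and whether the fall rests on single chow-fed mice was not tested. The contractile genes Acta2 (-0.50), Myl9 (-0.66) and Tagln (0.30) were not called. With atorvastatin 1, Spp1, fell. The sums were 107 to 593, 210 to 822 and 230 to 592 CPM, with medians of 154.8, 572.5 and 316.4 CPM. Of these sums, Spp1 alone had a mean of 94.1 CPM on chow, 521 CPM on the WTD and 302 CPM with atorvastatin. All 6 cholangiocyte markers rose on the WTD and Spp1, which both lists hold, fell with atorvastatin, with sums of 78.6 to 156, 183 to 850 and 217 to 606 CPM. Of 10 macrophage markers 8 rose on the WTD, and with atorvastatin 3 fell and 1 rose, with sums of 199 to 372, 973 to 1505 and 778 to 1265 CPM. Of 8 markers of sinusoidal endothelium 2 rose and 3 fell on the WTD, and 2 rose with atorvastatin, with sums of 312 to 458, 245 to 449 and 311 to 443 CPM. No marker of these lists was at 0 in all mice.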

How the data were processed

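Liver RNA of 42 mice (10 on chow, 16 on WTD, 16 on WTD with atorvastatin) was sequenced as strand-specific libraries of polyadenylated RNA. The authors trimmed the read pairs with Trimmomatic, aligned them with STAR (GRCm38) and assigned them to genes with HTSeq-count 0.6.1p1. They deposited raw counts. The table of all mice matched the 42 single tables, and 0 columns belonged to no sample. Lines for read pairs in no gene (2.28% on average), ambiguous between genes (5.96%) or aligned to several places (4.68%) were left out of totals and tests. Of 204 coding genes that lie inside another gene on the same strand, 203 had 0 counts. Genes of other types (miRNA, TEC) on the same strand inside the collagen genes also had 0 counts.

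Groups came from the labels. The quasi-likelihood test in edgeR 4.0.16 (R 4.3.3) was run on TMM-scaled counts with robust estimation, all mice in 1 model and no covariate, at an adjusted p under 0.01. Weak genes were removed beforehand by filterByExpr, with 10 as the minimum count and 15 as the minimum total. Symbols and exon lengths came from GENCODE vM21 and promoters from RefSeq. Chain ratios (0.5 counts added) and correlations (log2 CPM, prior count 2) used permutation tests in scipy 1.17.1. Alternatives were DESeq2 1.42.0, limma-voom (limma 3.58.1) with quality weights, RLE and upper-quartile scaling, other filters, no robust estimation, 2 groups only, no 20 most abundant genes, other thresholds, no libraries lacking over 20% of weak genes, and leaving out each mouse. The test was checked on simulated data for WTD against chow with 15318 genes, where it called 128 of 200 genes given a log2 change of 1 and 2 unchanged genes.

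The text names all 10 collagen genes and the genes closest to Col1a1. Of the lists it names mainly some of the genes with the smallest p on the WTD or with atorvastatin. Others of these, such as Mmp14, Tgm2, Sparc and Dcn, are not described. Members, lists and tests were chosen with earlier results of these data known. Protein, histology and plasma values were not analysed here. Nothing in the sources says that any libraries share an RNA extraction or a sequencing batch, so no batch was fitted.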

Additional observations from a re-analysis of the deposited data

Results flagged for a closer look

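In each of the 10 collagen genes the chow group (n = 10) was checked for a single mouse far from the rest, and 2 genes had one. Chance flags about 1 in 20 groups. For Col1a1 the highest chow-fed mouse, AZ#5, had 80.9 CPM against 42.7 CPM in the next, a gap of 0.58 of the group's range. For Col6a1 the lowest chow-fed mouse, AZ#2, had 9.26 CPM against 18.8 CPM in the next, a gap of 0.471 of the range, with a critical value of 0.466. In these libraries 45.1% (AZ#5) and 59.0% (AZ#2) of the weakly expressed genes had no count. AZ#2 also had the lowest level of Col5a1 (6.13 CPM), and AZ#5 the lowest of Col5a2 (4.60 CPM). The part of the libraries in these values was not tested.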

How the results depend on the processing

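No direction of a called collagen gene was reversed under the alternatives run. The number of collagen genes called was 9 or 10 for WTD against chow in each fit that left out 1 mouse, and 9 in each such fit for atorvastatin against chow. For atorvastatin against WTD, where 4 were called, the number was 7 with DESeq2, 8 with limma-voom, 1 without the 8 sparse libraries lacking over 20% of weak genes, 8 at an adjusted p under 0.05 and 0 when a log2 fold change of 1 or more was also required (8 genes had an unadjusted p under 0.05 in edgeR), and from 2 to 8 without single mice. The calls over all genes moved as well, from 4.84% higher and 2.26% lower to 5.35% and 5.17% with DESeq2, 11.8% and 8.41% with limma-voom and 3.07% and 1.81% without the sparse libraries. Both DESeq2 and limma-voom added Col3a1, Col5a2 and Col6a3, and limma-voom added Col1a1. Of the 27 relations with Col1a1, 17 passed with all mice and 11 without the 2 mice farthest from the median. Of 21 chain ratio tests, 11 passed, 15 without the 8 sparse libraries and 12 with 1 CPM added. The cause of these shifts was not tested. No paired analysis was possible because mouse numbers name different mice in each group. Counts were lowest for Col5a2 and Col5a1, with 91 in AZ#5 and 96 in AZ#2, which are both sparse libraries.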

Other observations

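Of the collagen genes, 2 pairs are neighbours in the genome (GRCm38). Col3a1 and Col5a2 lie 24614 bases apart on chromosome 1 and are read towards each other, and they rose on the WTD by 2.83 and 2.37 on the log2 scale. Col6a2 and Col6a1 lie 85161 bases apart on chromosome 10, read in the same direction, and rose by 1.85 and 1.75.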
